A study of Mus musculus with 10 samples.

Results

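The comparison sets 3T3-L1 adipocyte cultures under LA at 12 h against cultures under LA at 8 h. 3T3-L1 is a mouse fibroblast line that stores fat once it is differentiated into adipocytes. The members were defined by their labels: 4 arrays of LA at 12 h and 4 arrays of LA at 8 h, 8 of the 10 arrays of the series. The comparison was chosen with earlier results of these data known. Each 12 h array was paired with the 8 h array that carries the same biological replicate number, which gave 4 pairs. All 8 cultures received LA, the control fatty acid of a study of c9t11 CLA, and the labels do not spell LA out. No untreated culture and no earlier time were among the arrays used, so a difference is between 2 times under LA and not a response to LA. The passage and the day of differentiation behind each replicate number were not given in the sources used here.

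Adipocytes take up glucose and fatty acids, build triglyceride, and release fatty acids again under hormonal control. Insulin drives the building side through the SREBP factors, which turn on the enzymes of fatty acid and cholesterol synthesis. The branched-chain amino acids are also broken down in these cells and feed carbon to the mitochondria and to new lipid. Many genes of fat cells follow the circadian clock and the glucocorticoid hormones, and serum or medium changes can set both in cultured cells.

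Adipocyte markers were at high levels at both times, and preadipocyte markers also gave signal. The 5 adipocyte markers with a probe set (Adipoq, Fabp4, Lpl, Cidec and Pparg) had a mean log2 intensity of 11.7 to 12.39 on the 12 h arrays, against 11.88 to 12.33 on the 8 h arrays. Preadipocyte and fibroblast markers averaged 7.43 to 8.55 on the 12 h arrays, against 6.91 to 8.54 on the 8 h arrays. Of the 5 with a probe set, Cd34 lay on all 8 arrays at the floor of 3.77, below which intensities were not resolved. Pdgfra and Dlk1 had 8.46 to 10.96 at 12 h, against 7.42 to 11.15 at 8 h. Pdgfrb and Thy1 had 7.49 to 9.13 at 12 h, against 7.21 to 8.745 at 8 h. Macrophage markers averaged 4.35 to 5.15 at 12 h, against 4.34 to 5.01 at 8 h. Of the 6, Itgam and Ptprc lay at that floor on all 8 arrays, while Adgre1 and Csf1r were above it on all 8. Csf1r had 5.68 to 8.18 at 12 h, against 5.595 to 8.29 at 8 h. Of 4 endothelial markers, 3 lay at the floor on all 8 arrays, as did 2 of 4 epithelial markers, but Epcam had 6.57 to 7.39 at 12 h, against 6.60 to 7.15 at 8 h. The muscle markers averaged 3.77 to 4.87 at 12 h, against 3.78 to 4.63 at 8 h, with Des between the floor and 7.47 at 12 h, against the floor to 7.61 at 8 h. The 12 h array of replicate 4 stood apart on the array controls: its ratio of 3' to 5' actin signal, a measure of RNA integrity, was 5.67, against 1.49 to 1.73 on the other 12 h arrays and 1.45 to 2.6 on the 8 h arrays. Its 3' to 5' ratio for Gapdh was 1.42, against 0.845 to 0.879 on the other 12 h arrays and 0.81 to 0.919 on the 8 h arrays. List counts are therefore also given for pairs 1 to 3, and most single genes by array or by pair, so that pair 4 can be set aside; intervals are over 4 pairs unless said.

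No gene was called at an adjusted p under 0.05 (limma, paired by replicate number, Benjamini-Hochberg over 10916 genes, 0% called), and the lowest adjusted p was 0.795. At an unadjusted p under 0.05, 239 genes were higher at 12 h (2.19%) and 236 were lower (2.16%), together 475 against 545.8 that chance alone would give. The median half-width of the 95% interval of a gene's change was 0.47 on the log2 scale, and for 83.8% of the genes the whole interval lay within a 2-fold change either way. Without pair 4 no gene was called either, the lowest adjusted p was 0.767, and 630 genes had an unadjusted p under 0.05 (306 higher, 324 lower). The values below are thus descriptions of genes and groups of which none passed the test.

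The 4 pairs shared little of their time difference. Across the 10916 genes, which are not independent replicates, the changes of pairs 1 and 2 correlated at 0.12, those of pairs 1 and 3 at -0.04 and those of pairs 2 and 3 at 0.06. Pair 4 correlated at 0.07 with pair 1, at 0.15 with pair 2 and at -0.23 with pair 3. No test is attached to these values. Pair 4 spread widest, with 1561 genes past 2-fold, followed by pair 1 with 1002, pair 2 with 278 and pair 3 with 141. Under quantile normalization 664 genes were higher at 12 h in 4 of 4 pairs (6.08%) and 717 were lower (6.57%). The higher share of these one-way genes was 48.1%, but 37.7% with median centring and 65.7% on the deposited scaling. With median centring 4.59% of all genes were higher and 7.58% lower in 4 of 4 pairs. On the deposited scaling these shares were 2.6% and 1.36%. Under quantile normalization 1429 genes were higher in pairs 1 to 3 (13.1%) and 1425 lower (13.1%). Of the 1429 higher genes, 664 were also higher in pair 4 (46.5%) and 750 were lower there. Of the 1425 lower genes, 717 were also lower in pair 4 (50.3%), and 681 were higher. Over all genes tested, 47.4% were higher and 47.2% lower in pair 4.

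The genes lower at 12 h with the smallest p were led by Tmem229b, Snrpd3, Depp1 and Ap5s1. Tmem229b, a transmembrane protein, had log2 intensities of 5.61, 4.04, 3.77 and 5.15 at 12 h for replicates 1 to 4, against 6.31, 5.43, 5.43 and 6.03 at 8 h. Its 12 h value was below its partner in each pair, although the 12 h array of replicate 1 lay above the lowest 8 h arrays. The mean change was -1.16 (95% interval -1.70 to -0.62, adjusted p = 0.795 by limma, 4 of 4 pairs), with the 12 h array of replicate 3 at the floor. Depp1, a target of the FOXO factors that act when insulin signalling is low, had 7.33, 7.85, 6.56 and 6.29 at 12 h, against 8.51, 9.05, 6.84 and 7.87 at 8 h. The difference was small in pair 3 and over 1 log2 unit in the other three, and the times overlapped because the replicates differed in level. Its mean change was -1.06 (interval -1.57 to -0.55).

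Snrpd3, a core Sm protein of the spliceosomal ribonucleoproteins, had 6.81, 8.63, 8.03 and 8.00 at 12 h, against 7.44, 9.10, 8.77 and 8.48 at 8 h. It differed by a similar amount in every pair, from -0.47 in pair 2 to -0.73 in pair 3, with a mean of -0.58 (interval -0.85 to -0.30). Ap5s1, the small subunit of the AP-5 adaptor of late endosomes, had 5.57, 4.08, 4.67 and 4.01 at 12 h, against 6.78, 4.82, 5.45 and 5.78 at 8 h. Pair 4 differed most (-1.77) and pair 2 least (-0.74), around a mean of -1.13 (interval -1.69 to -0.56). Alox5, the lipoxygenase that begins leukotriene synthesis, did not overlap between the times: 3.77, 3.88, 3.90 and 3.77 at 12 h, against 4.96, 4.50, 4.41 and 4.71 at 8 h. All its 12 h values were at or just above the floor, and a floor understates a difference, here -0.82 on average.

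The genes higher at 12 h with the smallest p were Ccar1, Ankrd12, Sox4, Naa16 and Kmt2c. Ccar1, a coactivator of transcription that also acts in apoptosis, had 6.16, 8.16, 8.56 and 8.97 at 12 h, against 5.83, 7.32, 7.67 and 7.97 at 8 h. Each 12 h array exceeded its partner, by 0.33 in pair 1 and by 0.84 or more in pairs 2 to 4, while replicate 1 was the dimmest at both times. The mean change was 0.76 (interval 0.40 to 1.12). Ankrd12, a nuclear ankyrin-repeat protein, had 4.51, 6.81, 6.62 and 6.82 at 12 h, against 3.77, 5.95, 5.85 and 5.84 at 8 h. Each 12 h value was above its partner, but the times overlapped because replicate 1 was the dimmest at both. The 8 h value of replicate 1 was at the floor, and the mean change was 0.84 (interval 0.44 to 1.24).

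Kmt2c, a histone H3 lysine methyltransferase of enhancers, had 6.10, 7.47, 7.52 and 7.01 at 12 h, against 5.53, 6.79, 6.57 and 6.59 at 8 h, a mean change of 0.65 (interval 0.29 to 1.02). Pknox1, a homeodomain factor, had 6.56, 6.35, 6.16 and 6.40 at 12 h, against 6.01, 5.59, 5.70 and 5.44 at 8 h. Its 12 h values all lay above its 8 h values, by 0.68 on average (interval 0.27 to 1.09). Sox4, a transcription factor of the SoxC group, differed by 0.35 to 1.03 across the pairs, but 2 of its 5 probe sets bright enough to be tested had the opposite sign. Opposite signs among probe sets were also seen for Zfr, an RNA-binding zinc finger protein, for the lysophosphatidic acid receptor Lpar1, and for Ccnt1, the cyclin of the transcription elongation kinase.

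The other genes named among the 15 highest were Naa16, a subunit of an N-terminal acetyltransferase, Tcaf2, the kinase anchor Akap12, the chromatin reader Yeats2, the ribonuclease Ear3, the microRNA host transcript Mir99ahg and the RNA uridylyltransferase Tut4. Ear3 has close paralogs, and its probe set may not separate them. The other genes among the 15 lowest were the ubiquitin ligase Lnx1, Cuta, the splicing factor Yju2, 4930503B20Rik, Zbtb46, the phospholipase Plcd3, the p53 inhibitor Ppp1r13l, the actin-binding Triobp, the adaptor subunit Ap1g2 and Zfp580. The absolute mean change of the 30 genes ran between 0.51 and 1.16. Of the 30, 18 lay above the floor on all 8 arrays, and of the 17 read by more than 1 bright probe set, 13 gave 1 sign throughout. The 30 were selected for moving 1 way in 4 of 4 pairs, which 129 genes did upwards and 128 downwards by at least 0.5 on average and above the floor at 1 time.

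In pairs 1 to 3 alone, the genes higher at 12 h with the smallest p were Clpx, Ces1f, Cyp51, N4bp2l1, Zfp267, Pnpla3, Sox4 and Ypel2, of which Sox4 was also higher in pair 4. Clpx, a mitochondrial protein unfoldase, had 8.24, 8.16, 9.02 and 7.96 at 12 h, against 7.67, 7.58, 8.45 and 8.64 at 8 h, so that pairs 1 to 3 differed by nearly the same amount and pair 4 ran the other way, while 1 of its 2 bright probe sets had the opposite sign over all pairs. The genes lower with the smallest p were Snrpd3, Tbrg1, Tmem229b, Snd1, Txnl4b, Ap5s1, Slc35e4 and Vamp2, of which Tbrg1, Snd1 and Slc35e4 were higher in pair 4. Vamp2, a vesicle SNARE through which fat cells move the glucose transporter GLUT4 to the surface, had 6.80, 6.08, 6.42 and 5.39 at 12 h, against 7.43, 7.16, 6.89 and 5.49 at 8 h. Its 12 h value was below its partner in each pair, least so in pair 4 (mean -0.57, interval -1.03 to -0.11). Txnl4b, a spliceosome-associated protein, was also lower in 4 of 4 pairs, with a difference of -0.05 in pair 4.

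**Figure D1:**
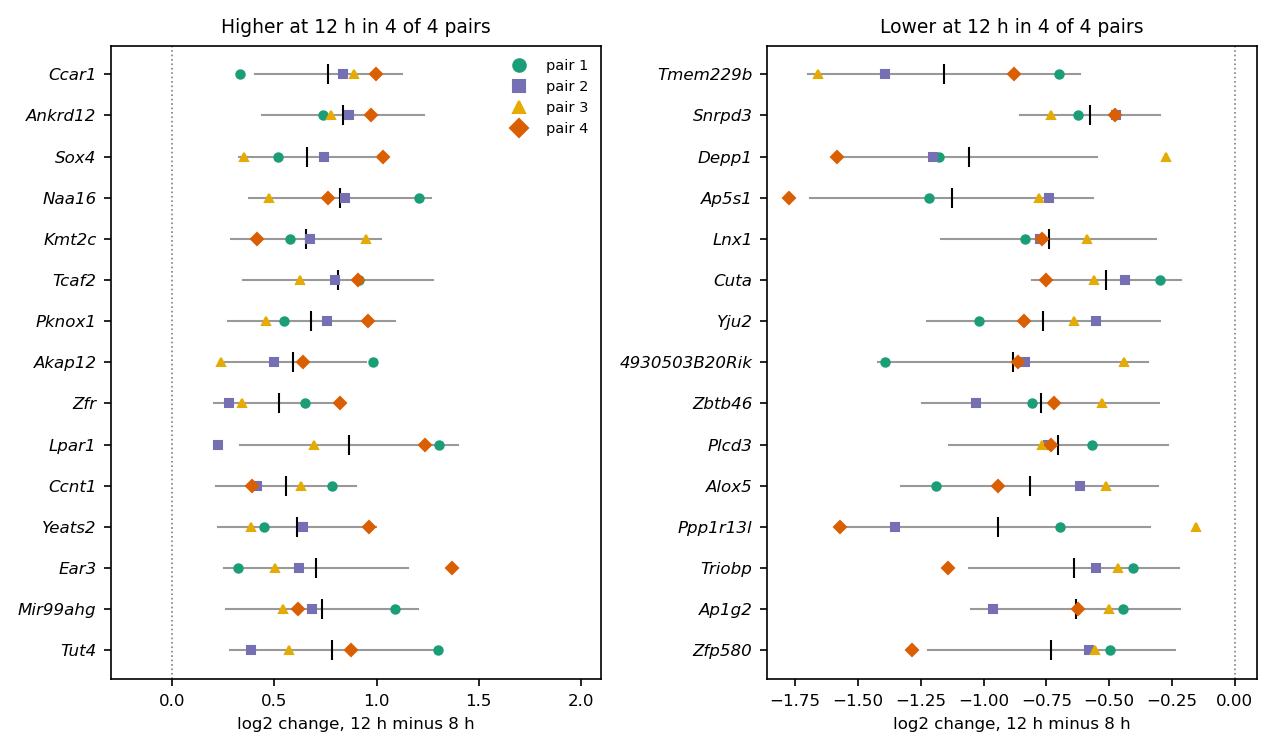
The 30 genes with the smallest p among those of 1 direction in 4 of 4 pairs, those higher at 12 h on the left and those lower on the right; the horizontal axis is the log2 change, 12 h minus 8 h. Coloured symbols are the 4 pairs, the black tick is the mean and the grey line its 95% interval. For Depp1 pair 3 lies close to 0, and for Ap5s1 pair 4 lies at -1.77.

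**Figure D2:**
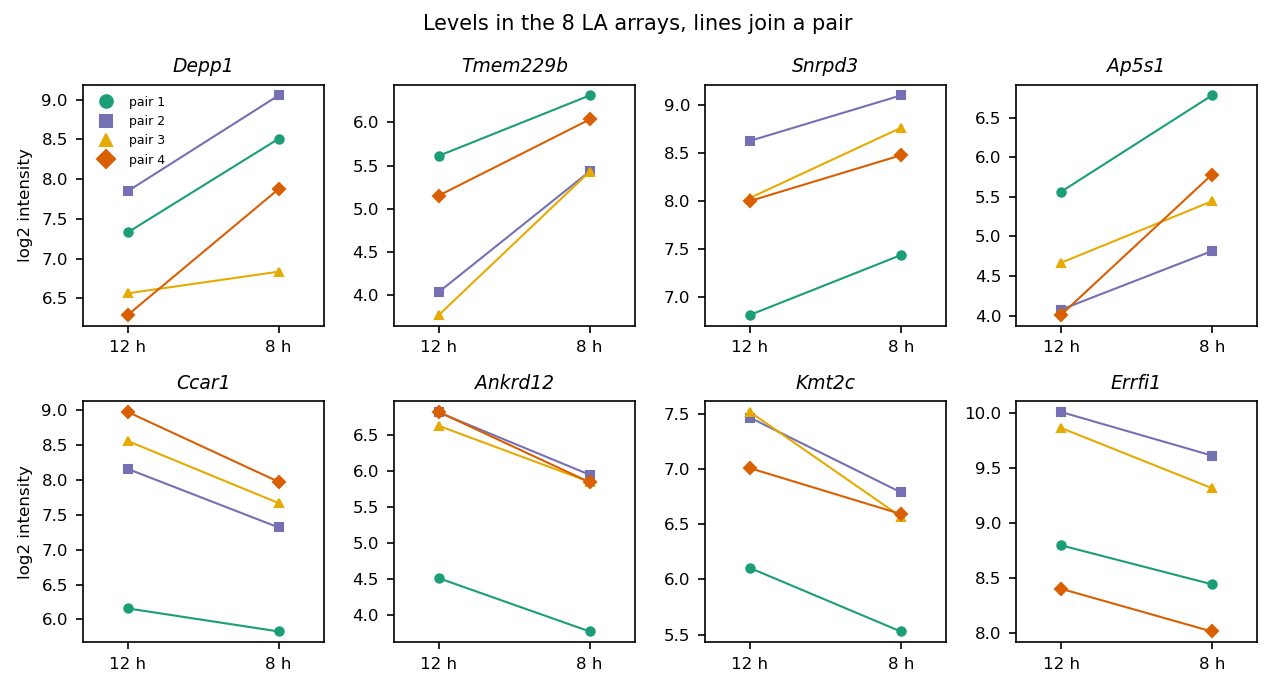
Log2 intensity of 8 genes on the 8 LA arrays, 12 h on the left and 8 h on the right of each panel, with a line for each pair. The lines of a gene run the same way while their heights differ, as for Ccar1, where replicate 1 lies near 6 at both times and the others between 7.32 and 8.97.

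Genes of cholesterol synthesis were higher at 12 h in pairs 1 to 3 and lower in pair 4. The list held the enzymes from the first condensation to cholesterol and their regulators, of which 20 were tested. In pairs 1 to 3, 12 of the 20 were higher in each pair (60%, against 13.1% of all genes tested), and 1 was lower in each, Ebp, a sterol isomerase. The list median was 0.20 in pair 1, 0.21 in pair 2, 0.32 in pair 3 and -0.84 in pair 4. All 12 were lower at 12 h in pair 4. The count was 10 to 12 under the other scalings, floors and filters tried, and no member passed the test in either fit.

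Cyp51, the lanosterol demethylase, had 8.64, 8.02, 10.24 and 7.93 at 12 h, against 8.02, 7.55, 9.80 and 8.85 at 8 h. It differed by 0.44 to 0.61 in pairs 1 to 3 and by -0.92 in pair 4, and its mean over pairs 1 to 3 was 0.51 ± 0.09 (SE, adjusted p = 0.767 by limma). Msmo1, the methylsterol oxidase that acts after it, had 9.62, 8.62, 9.63 and 9.13 at 12 h, against 9.26, 8.30, 8.94 and 10.53 at 8 h. Its 8 h array of replicate 4 was the highest of the 8 arrays, and the pairs 1 to 3 mean was 0.46 ± 0.11. Fdft1, squalene synthase, differed by 0.46, 0.47 and 0.50 in pairs 1 to 3 and by -0.78 in pair 4, although 1 of its 2 bright probe sets had the opposite sign over all pairs. Stard4, a cholesterol transfer protein, had 5.70, 6.51, 7.04 and 7.24 at 12 h, against 3.77, 5.82, 6.20 and 7.44 at 8 h. Its difference of 1.92 in pair 1 was measured against a value at the floor, and pair 4 differed by -0.20. At the other end Srebf2, the factor that drives these genes, differed by 0.17, -0.64, 0.39 and 0.04 in pairs 1 to 4.

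The start regions of the tested members, those outside the 12 included, were read for shared letters. RefSeq windows on GRCm38.p6, 250 bases before to 50 after the start, were found for 16 of the 20 members, 19 windows in all. The 5 letters CCAAT, the box bound by the factor NF-Y, were present on either strand (CCAAT or ATTGG) in 16 of the 19 windows (84.2%), against 37.4% of all 32851 windows. The letters TCACNCCAC (or GTGGNGTGA on the other strand), a form of the sterol regulatory element of SREBP, were present in 1 of the 19 (5.26%), against 1.24% of all windows. The sterol letters and the CCAAT letters do not overlap in the window that held both. Matches are descriptions of letters and not of bound sites. The 4 windows shown are of the 3 members with a window and the smallest p in pairs 1 to 3, and of Hmgcs1, the one with the sterol element. They lie at chr5:4104648-4104947, minus strand (Cyp51), chr8:64733529-64733828, minus strand (Msmo1), chr13:8885356-8885655, plus strand (Idi1) and chr13:119690101-119690400, plus strand (Hmgcs1). Capitals mark the motif letters, CCAAT or ATTGG in all 4 and TCACCCCAC in Hmgcs1.
Cyp51: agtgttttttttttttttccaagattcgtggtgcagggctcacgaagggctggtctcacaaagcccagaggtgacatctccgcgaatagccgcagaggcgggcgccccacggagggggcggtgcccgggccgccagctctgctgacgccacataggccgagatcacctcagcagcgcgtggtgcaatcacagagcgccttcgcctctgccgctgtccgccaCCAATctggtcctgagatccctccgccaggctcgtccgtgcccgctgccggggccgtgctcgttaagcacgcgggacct
Msmo1: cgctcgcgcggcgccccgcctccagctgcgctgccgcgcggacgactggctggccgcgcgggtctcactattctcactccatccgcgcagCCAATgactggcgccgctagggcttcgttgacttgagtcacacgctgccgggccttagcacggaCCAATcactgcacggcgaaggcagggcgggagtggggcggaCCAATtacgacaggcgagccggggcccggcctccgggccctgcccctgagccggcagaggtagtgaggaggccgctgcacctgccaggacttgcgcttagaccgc
Idi1: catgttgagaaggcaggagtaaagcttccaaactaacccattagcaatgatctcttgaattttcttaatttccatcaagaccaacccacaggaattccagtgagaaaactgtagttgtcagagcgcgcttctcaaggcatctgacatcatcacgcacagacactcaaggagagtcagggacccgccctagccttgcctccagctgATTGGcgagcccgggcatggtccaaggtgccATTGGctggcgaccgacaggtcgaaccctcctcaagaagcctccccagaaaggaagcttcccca
Hmgcs1: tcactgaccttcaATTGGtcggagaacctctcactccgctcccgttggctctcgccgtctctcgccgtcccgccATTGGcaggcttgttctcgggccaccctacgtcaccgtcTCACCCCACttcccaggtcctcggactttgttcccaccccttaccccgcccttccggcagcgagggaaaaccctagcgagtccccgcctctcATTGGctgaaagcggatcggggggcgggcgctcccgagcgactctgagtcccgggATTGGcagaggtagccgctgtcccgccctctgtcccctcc

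Idi1, the isopentenyl isomerase, differed by 0.10, 0.64, 0.61 and -0.89 in pairs 1 to 4. Hmgcs1, the synthase of HMG-CoA, differed by 0.23 in pairs 1 and 2, by -0.18 in pair 3 and by -0.64 in pair 4. The member with the sterol element in its window was thus not among the 12. Fdft1, Sqle and Stard4, which were among the 12, had no window and were not read.

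Breakdown of branched-chain amino acids had the same pattern across the pairs. Of 16 tested members, 9 were higher at 12 h in each of pairs 1 to 3 (56.2%, against 13.1%), none was lower in each, and the 9 were all lower in pair 4. The list median was 0.31, 0.14 and 0.26 in pairs 1 to 3 and -0.999 in pair 4, and the count was 8 to 10 under other scalings, floors and filters. Dbt, the acyltransferase core of the branched-chain ketoacid dehydrogenase, had 7.15, 8.02, 9.48 and 7.76 at 12 h, against 6.78, 7.54, 8.32 and 8.48 at 8 h. Its mean over pairs 1 to 3 was 0.67 ± 0.18 (SE), and pair 4 differed by -0.72. Mccc1, of the leucine branch, had 9.20, 9.35, 9.55 and 9.40 at 12 h, against 8.89, 9.03, 9.08 and 10.49 at 8 h. The 12 h arrays lay within 0.4 of each other, and the 8 h array of replicate 4 was over 1 unit above the other three. Hibadh and Hibch, of the valine branch, averaged 0.25 ± 0.08 and 0.27 ± 0.08 in pairs 1 to 3, each with 1 of 2 bright probe sets of opposite sign over all pairs.

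The citric acid cycle list was close to these with smaller changes. Of 18 members 7 were higher in each of pairs 1 to 3 (38.9%, against 13.1%), among them fumarase (Fh1, 0.20 ± 0.08) and the succinyl-CoA ligase subunits Suclg1 and Sucla2, and all 7 were lower in pair 4. The count was 3 on the deposited scaling (16.7%, against 9.81% of all genes there). The median of all genes in pairs 1 to 3 was itself 0.13 on that scaling. Cytosolic ribosomal proteins ran the other way, with 12 of 22 lower in each of pairs 1 to 3 (54.5%, against 13.1%), by a median of -0.08, -0.05 and -0.06, and all 12 higher in pair 4. Rps19 differed by -0.23, -0.27, -0.20 and 0.62 in pairs 1 to 4. That count was 18 with median centring (81.8%, against 14.7%) and 0 on the deposited scaling, where 2.22% of all genes were lower. The list median over pairs 1 to 3 was below 0 under each scaling (-0.05, -0.22 with median centring and -0.04 on the deposited scaling).

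**Figure D3:**
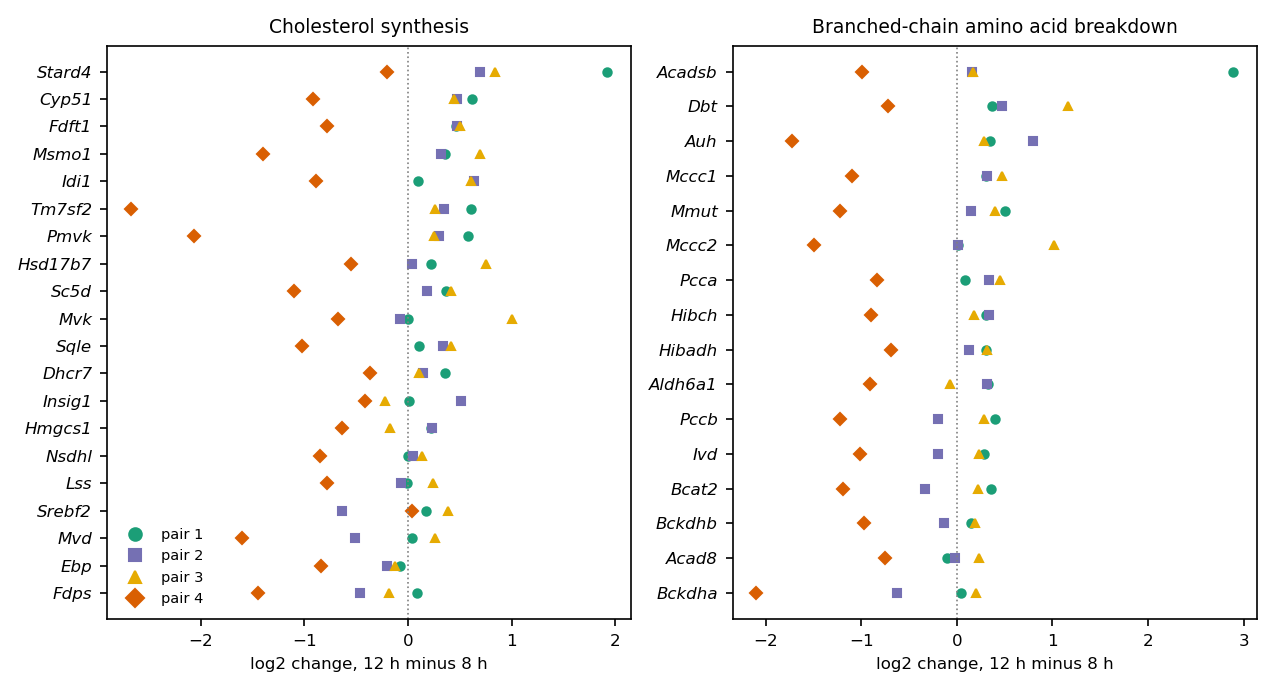
Log2 change, 12 h minus 8 h, of each tested member of cholesterol synthesis (left) and of branched-chain amino acid breakdown (right), with 1 symbol for each pair. Pair 4 (red diamonds) lies left of 0 for 19 of 20 and 16 of 16 members, while most symbols of pairs 1 to 3 lie right of it.

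The storage and release genes of fat followed the same division in part, with fewer members. Of 17 fatty acid synthesis genes 5 were higher in each of pairs 1 to 3 (29.4%, against 13.1% of all genes tested), and of 21 targets of PPARg and lipid storage genes 6 were (28.6%), all of them lower in pair 4. With median centring these counts were 2 and 3 (11.8% and 14.3%, against 10.7% of all genes). On the deposited scaling they were 3 and 0 (17.6% and 0%, against 9.81%). Pnpla3, a lipase of lipid droplets, had 7.57, 5.82, 8.57 and 6.47 at 12 h, against 7.03, 5.07, 7.62 and 9.89 at 8 h. It differed by 0.54 to 0.95 in pairs 1 to 3 and by -3.42 in pair 4, where the 8 h array held the highest of the 8 values. Of 9 lipolysis genes 4 were higher in each of pairs 1 to 3 (44.4%, against 13.1%), none was lower in each, and the 4 were lower in pair 4. The count was also 4 with median centring (against 10.7% of all genes) and on the deposited scaling (against 9.81%). Among the 4, Pde3b, the phosphodiesterase through which insulin restrains lipolysis, differed by 0.94, 0.63, 0.42 and -1.91 in pairs 1 to 4. Of 10 triglyceride synthesis genes, 2 were higher in 4 of 4 pairs (20%, against 6.08% of all genes) and 1 was lower (10%, against 6.57%). The higher were Gpat3 and Dgat2, which add the first and the last acyl chain, by 0.29 (interval 0.02 to 0.57) and 0.19 (interval -0.10 to 0.49). Neither was so under median centring or on the deposited scaling, where no member of the list was higher in 4 of 4 pairs. Over pairs 1 to 3 alone, 4 of the 10 were higher (40%, against 13.1%) and 1 was lower (10%, against 13.1%). Of those 4, 2 were lower in pair 4. On the deposited scaling 3 were higher in pairs 1 to 3 (30%, against 9.81%). Agpat3, an acyltransferase of the same route, was lower in 4 of 4 pairs, by -0.06, -0.31, -0.06 and -1.32, with 1 of 4 bright probe sets of opposite sign, and not so on the deposited scaling.

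Genes of thermogenic fat were few above background. Of 15 listed, 7 were tested. Elovl3, a fatty acid elongase of brown fat, had 8.27, 5.43, 7.25 and 4.08 at 12 h, against 7.93, 4.66, 6.29 and 5.76 at 8 h. Ppargc1a, the coactivator of mitochondrial genes, differed by 1.23, 0.83, 0.25 and -0.11 in pairs 1 to 4, with its 8 h array of replicate 1 at the floor. Cox8b, a muscle and brown fat subunit of cytochrome oxidase, differed most between replicates, with 10.01, 3.77, 6.34 and 3.77 at 12 h, against 9.67, 3.77, 5.03 and 9.66 at 8 h. It was at the floor at both times in replicate 2 and at 12 h only in replicate 4.

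The standard adipocyte genes overlapped between the times. Pparg, the master factor of fat cells, had 9.65, 10.01, 10.49 and 9.87 at 12 h, against 10.02, 10.01, 10.05 and 10.79 at 8 h. Cebpa, its partner, had 10.87, 9.33, 10.73 and 8.99 at 12 h, against 10.73, 9.41, 10.53 and 9.59 at 8 h. The times overlapped for both, with mean changes of -0.21 (interval -0.72 to 0.30) and -0.08 (interval -0.46 to 0.29). Adipoq and Fabp4, the adipokine and the fatty acid carrier, lay between 12.68 and 13.19 on all arrays, near the top of the scale where differences are compressed. Scd1, the stearoyl-CoA desaturase, had 13.19, 12.89, 13.02 and 11.91 at 12 h, against 13.15, 12.63, 13.07 and 13.10 at 8 h, so that only the 12 h array of replicate 4 was apart. Fasn differed by 0.57, 0.08, -0.01 and -1.60 in pairs 1 to 4 (mean -0.24, interval -1.01 to 0.53), and Cd36 by 0.44, -0.05, 0.22 and -1.09 (mean -0.12, interval -0.70 to 0.46). For Lpl pair 1 was apart, with 0.44, 0.03, -0.04 and -0.04 (mean 0.10, interval -0.26 to 0.45). Leptin (Lep) was at the floor on 7 of the 8 arrays and at 5.59 on the 8 h array of replicate 4.

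Some lists had a larger share of members lower at 12 h in 4 of 4 pairs than all genes tested. Of 24 autophagy and lysosome genes, 6 were lower at 12 h in 4 of 4 pairs (25%, against 6.57% of all genes tested), and none was higher in 4 of 4. Over pairs 1 to 3 alone 7 were lower (29.2%, against 13.1%) and none was higher. The list median was -0.08, -0.20, -0.09 and -0.25 in pairs 1 to 4. The count over 4 pairs was also 6 with median centring (25%, against 7.58% of all genes there). On the deposited scaling it was 2 (8.33%, against 1.36% of all genes there). Atg7, the activating enzyme of the conjugation that builds autophagosomes, had 7.56, 6.24, 6.61 and 5.40 at 12 h, against 7.91, 6.54, 7.08 and 6.25 at 8 h. Each 12 h value was below its partner, by -0.30 in pair 2 to -0.85 in pair 4, with a mean of -0.49 (interval -0.87 to -0.12), although 1 of its 3 bright probe sets had the opposite sign. Atg9a, the membrane protein that seeds autophagosomes, had 7.83, 5.78, 7.26 and 5.70 at 12 h, against 8.04, 6.22, 7.80 and 5.98 at 8 h. The differences of -0.21 to -0.54 were smaller than the gap between replicates at either time. Sqstm1, the p62 cargo receptor, differed by -0.29, -0.49, 0.04 and -0.77 in pairs 1 to 4.

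Of 25 genes of inflammation and NF-kB, 6 were lower in 4 of 4 pairs (24%, against 6.57%) and none was higher. The same 6, and 4 that were higher, had 1 direction in pairs 1 to 3 (24% lower, against 13.1%). The 6 were the transcription factor subunits Rela, Nfkb2 and Relb, the feedback inhibitor Tnfaip3 and the chemokines Ccl2 and Ccl7. Ccl2 had 5.66, 4.93, 4.31 and 7.78 at 12 h, against 5.91, 5.37, 4.71 and 9.33 at 8 h. Replicate 4 had the highest Ccl2 signal at both times. Rela differed by -0.18 to -0.40, with a mean of -0.29 (interval -0.56 to -0.02). For Tnfaip3 (-0.48, interval -0.91 to -0.06), 1 of 2 bright probe sets had the opposite sign. The count was 1 on the deposited scaling (4%, against 1.36% of all genes there). With a floor 2 times as high it was 3 (12%, against 5.51%). The median of the list was -0.23 over 4 pairs but 0.15 over pairs 1 to 3, so the list as a whole did not run 1 way.

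Glycolysis and the hypoxia response each had 4 genes lower in 4 of 4 pairs, of 14 (28.6%) and of 17 (23.5%, against 6.57% of all genes), and none higher. For glycolysis these were Pfkl, the liver-type phosphofructokinase, Aldoa, Tpi1 and Eno2. Eno2 differed by -0.94, -0.25, -0.50 and -0.54 in pairs 1 to 4, while the other three differed by -0.03 to -0.39 in pairs 1 to 3 and by -1.17 to -2.06 in pair 4. With median centring 7 glycolysis and 4 hypoxia genes were lower in 4 of 4 pairs (50% and 23.5%, against 7.58% of all genes). On the deposited scaling the counts were 3 and 3 (21.4% and 17.6%, against 1.36%). Without pair 4, 5 glycolysis genes (35.7%) and 4 hypoxia genes (23.5%) were lower in each pair, against 13.1%, and 1 and 2 were higher. In the hypoxia list Adm, the vasodilator peptide adrenomedullin, had 5.999, 6.40, 6.37 and 5.95 at 12 h, against 6.57, 7.53, 6.39 and 7.20 at 8 h. The mean change was -0.74 (interval -1.29 to -0.19), pair 3 being nearly level, and 1 of its 2 bright probe sets had the opposite sign. P4ha2, a collagen prolyl hydroxylase, Ankrd37 and Higd1a were the other three. The hypoxia list median was -0.32, -0.02, 0.14 and -1.25 in pairs 1 to 4, so that list as a whole did not run 1 way. For glycolysis the medians were -0.18, -0.19, -0.02 and -0.70. Oxidation of fatty acids, with 19 tested members, was split. Hadha (-0.32, interval -0.60 to -0.04), Acaa1a and Acaa2 were lower in 4 of 4 pairs (15.8%, against 6.57% of all genes), and none was higher. Cpt2, Slc25a20, Acadm, Acadl and Hadhb were higher in each of pairs 1 to 3 (26.3%, against 13.1%). All 5 were lower in pair 4, by -0.35 (Acadl) to -1.10 (Cpt2). On the deposited scaling no member of that list was lower in 4 of 4 pairs.

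Of 17 genes of the glucocorticoid response, 3 were higher at 12 h in 4 of 4 pairs (17.6%, against 6.08%) and 1 was lower. On the deposited scaling 2 were higher (11.8%, against 2.6%) and none was lower. Without pair 4, 5 were higher in each pair (29.4%, against 13.1%) and 1 was lower. Errfi1, a feedback inhibitor of the EGF receptor, had 8.80, 10.01, 9.87 and 8.40 at 12 h, against 8.44, 9.61, 9.32 and 8.02 at 8 h. Its pairs differed by 0.35 to 0.55, with a mean of 0.42 (interval 0.17 to 0.68). Klf9, a Krüppel-like factor, had 8.61, 9.96, 10.14 and 9.82 at 12 h, against 8.18, 9.64, 9.81 and 9.56 at 8 h, and differed by 0.25 to 0.43. Of its 6 bright probe sets, 4 had that sign. Sgk1, a kinase of ion transport, was 0.12 to 0.31 higher in pairs 1 to 3 and 1.55 higher in pair 4. Tsc22d3 and Fkbp5, the usual reporters of the receptor, had mean changes of -0.22 (interval -0.77 to 0.34) and 0.20 (interval -0.31 to 0.71) with pairs on either side of 0.

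The circadian clock list had 18 tested members, of which none was higher and 2 were lower in 4 of 4 pairs (11.1%, against 6.57%). On the deposited scaling 1 was lower (5.56%, against 1.36%). Over pairs 1 to 3 alone 2 were higher (11.1%) and 4 lower (22.2%), against 13.1% each way. The genes lower in 4 of 4 were Per1, a negative arm gene, by -0.22 on average (interval -0.58 to 0.15), and Bhlhe40, a repressor of the clock, by -0.77 (interval -1.48 to -0.05). Bhlhe40 had 8.29, 8.69, 7.89 and 6.45 at 12 h, against 9.06, 8.86, 8.03 and 8.45 at 8 h, and pair 4 gave most of the mean. Ciart, another repressor, was at the floor on all 4 arrays at 12 h, against 6.17, 4.68, 4.23 and 3.77 at 8 h, so it was lower in the 3 pairs in which it was measurable at 8 h. Nr1d2, the nuclear receptor REV-ERB beta, had 5.54, 6.16, 6.36 and 7.93 at 12 h, against 4.55, 5.30, 6.46 and 7.45 at 8 h. It differed by 0.99, 0.85, -0.10 and 0.48 in pairs 1 to 4, a mean of 0.56 (interval 0.04 to 1.07).

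Of the core activators, Arntl differed by 0.12, 0.25, 0.07 and -1.05 in pairs 1 to 4, and Clock by 0.21, 0.34, -0.04 and 0.40 (mean 0.23, interval -0.14 to 0.60). Of the negative arm, Per2, Per3, Cry1 and Cry2 averaged -0.26, -0.29, -0.46 and -0.28, each with pairs on both sides of 0. The output factors Dbp, Tef and Hlf averaged -0.03, -0.11 and 0.00, Hlf being at the floor on 6 of 8 arrays, and Nfil3 averaged -0.46 (interval -0.996 to 0.07). Rora and Nr1d1 averaged 0.06 and 0.09, and the kinases Csnk1d and Csnk1e 0.10 and -0.11. With 2 times 4 h apart, no phase can be read from these values.

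Single genes of other lists also kept 1 direction in 4 of 4 pairs. Apoe, a lipid carrier made by fat cells, had 7.20, 7.79, 6.20 and 5.13 at 12 h, against 7.73, 8.18, 6.49 and 7.15 at 8 h, a mean of -0.81 (interval -1.51 to -0.11). The difference was -0.29 to -0.53 in pairs 1 to 3 and -2.02 in pair 4. Sesn1, a p53 target of the stress response, had 5.90, 7.11, 7.001 and 7.59 at 12 h, against 5.68, 6.31, 6.48 and 6.72 at 8 h, a mean of 0.60 (interval 0.20 to 1.001), with its 3 bright probe sets of the same sign. Nop58, a core protein of box C/D small nucleolar ribonucleoproteins, was 0.85, 0.12, 1.52 and 1.07 higher in pairs 1 to 4 (mean 0.89, interval 0.31 to 1.47). Tgfb1, the growth factor, differed by -0.21 to -0.67 (mean -0.48, interval -0.84 to -0.12), with 1 of 2 bright probe sets of opposite sign. Apln, the adipokine apelin, differed by -0.03 to -0.76 (mean -0.42, interval -0.78 to -0.05). Ebf1, a factor of fat cell differentiation, was higher by 0.12 in pairs 1 and 3, by 0.62 in pair 2 and by 1.47 in pair 4.

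Lists with a positive mean for most members seldom kept that direction by pair. Of all 10916 genes tested, 5364 had a mean change above 0. Of 31 extracellular matrix genes 29 did, but 2 were higher in 4 of 4 pairs (6.45%, against 6.08%), the collagen Col5a2 and the proteoglycan Dcn. The list median was 0.42, -0.07, -0.16 and 0.71 in pairs 1 to 4. The same 2 were the members higher in pairs 1 to 3 (6.45%, against 13.1%), and none was lower there (against 13.1%). Of 14 preadipocyte and fibroblast markers 11 had a mean above 0 and none was higher in 4 of 4, with medians of 0.18, 0.00, -0.15 and 0.83. Over pairs 1 to 3 alone none was higher and 2 were lower (14.3%), against 13.1% of all genes each way. Splicing factors had a mean above 0 for 26 of 31 members, and 4 were higher in 4 of 4 pairs (12.9%, against 6.08%): Srsf5, Hnrnpc, Hnrnpk and Tra2a. On the deposited scaling 2 were higher (6.45%, against 2.6%) and 1 was lower (3.23%, against 1.36%). Of the same list, 5 were higher and 2 lower in pairs 1 to 3 (16.1% and 6.45%, against 13.1%). Of 28 proteasome subunits 3 were lower in 4 of 4 (10.7%, against 6.57%): Psmb4, Psmb5 and Psmc1. With median centring 7 were lower (25%, against 7.58%), and on the deposited scaling 0 (against 1.36%). Over pairs 1 to 3 alone 6 were lower (21.4%, against 13.1%) and 1 was higher.

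**Figure D4:**
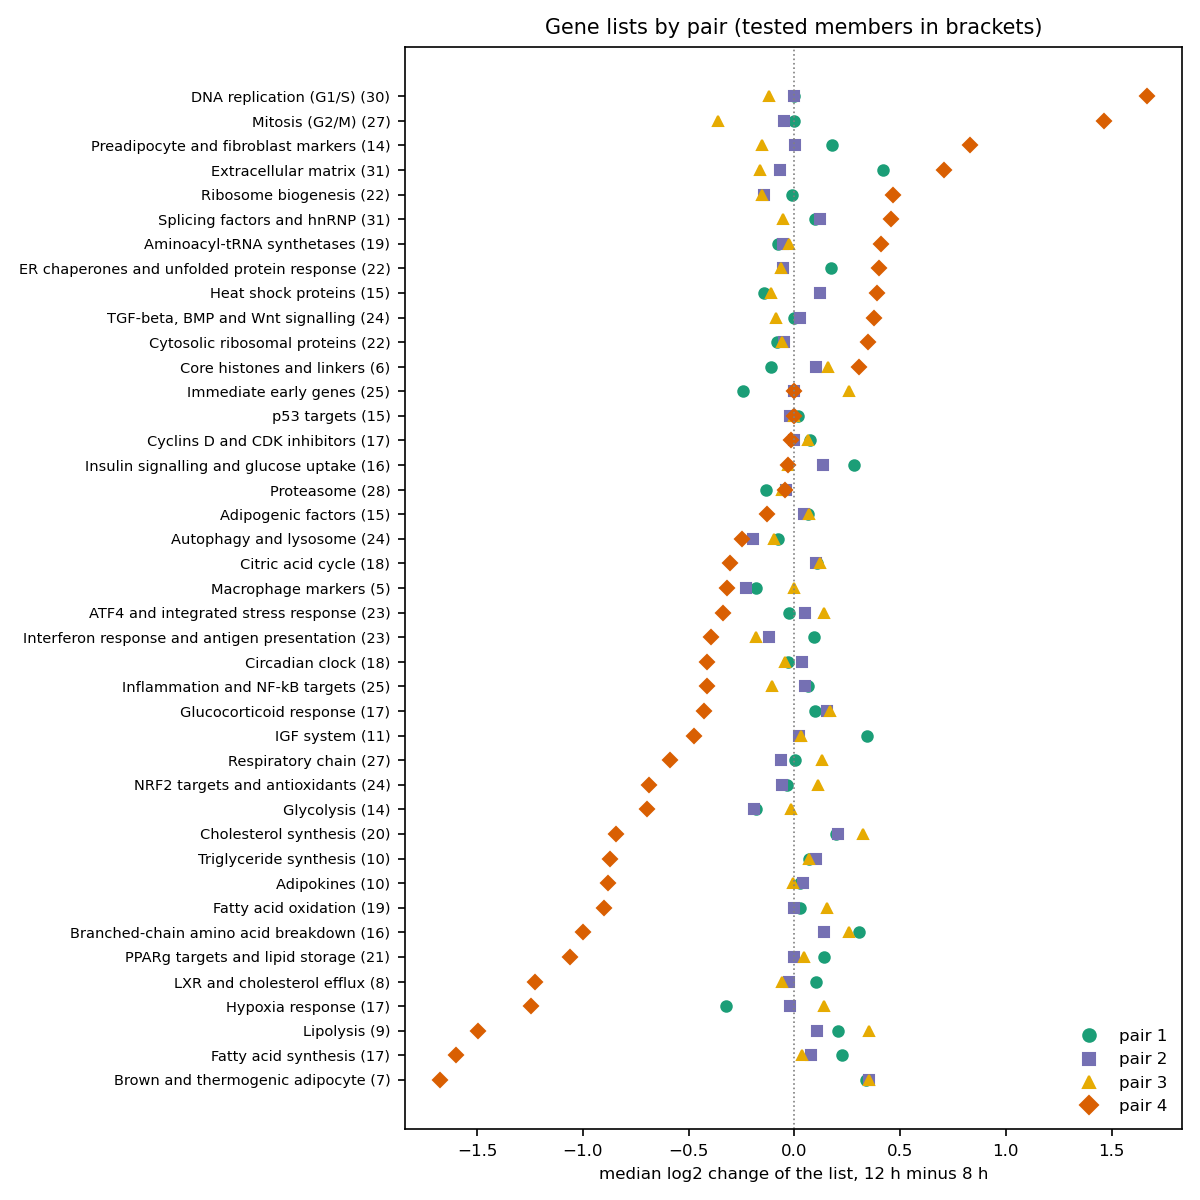
Median log2 change, 12 h minus 8 h, of the tested members of each list with at least 5 (number in brackets), with 1 symbol for each pair, ordered by pair 4. Pairs 1 to 3 lie between -0.36 and 0.42, while pair 4 (red diamonds) spans -1.67 for thermogenic genes to 1.67 for DNA replication.

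Pair 4 set the largest list values, and both of its arrays contributed. The mean log2 intensity of the 30 DNA replication genes was 5.37, 6.50, 6.03 and 7.31 at 12 h for replicates 1 to 4, against 5.40, 6.55, 6.22 and 5.70 at 8 h, so the 12 h array of replicate 4 was the high one. For cholesterol synthesis the means were 7.92, 7.01, 8.03 and 7.62 at 12 h, against 7.61, 6.87, 7.70 and 8.58 at 8 h, and there the 8 h array of replicate 4 was the high one. Branched-chain amino acid breakdown had 8.97, 8.44, 9.13 and 8.21 at 12 h, against 8.56, 8.35, 8.77 and 9.32 at 8 h. Here the 12 h array of replicate 4 was the lowest and the 8 h array of replicate 4 the highest of the 8. Fatty acid synthesis had 9.18, 8.18, 9.06 and 7.99 at 12 h, against 8.87, 8.06, 8.995 and 9.63 at 8 h, with the same 2 arrays at the extremes. In bulk RNA, fewer cells of a type and less RNA per cell cannot be told apart. The 3' to 5' ratios stood apart on the 12 h array of replicate 4. Its 8 h partner, the high array for cholesterol synthesis, had an actin ratio of 2.6. The 8 h arrays of replicates 1, 2 and 3 had 1.62, 1.45 and 2.58. The Gapdh ratio of that partner was 0.919, against 0.81 to 0.845 on the other 8 h arrays. The part of these ratios in the list values was not tested.

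**Figure D5:**
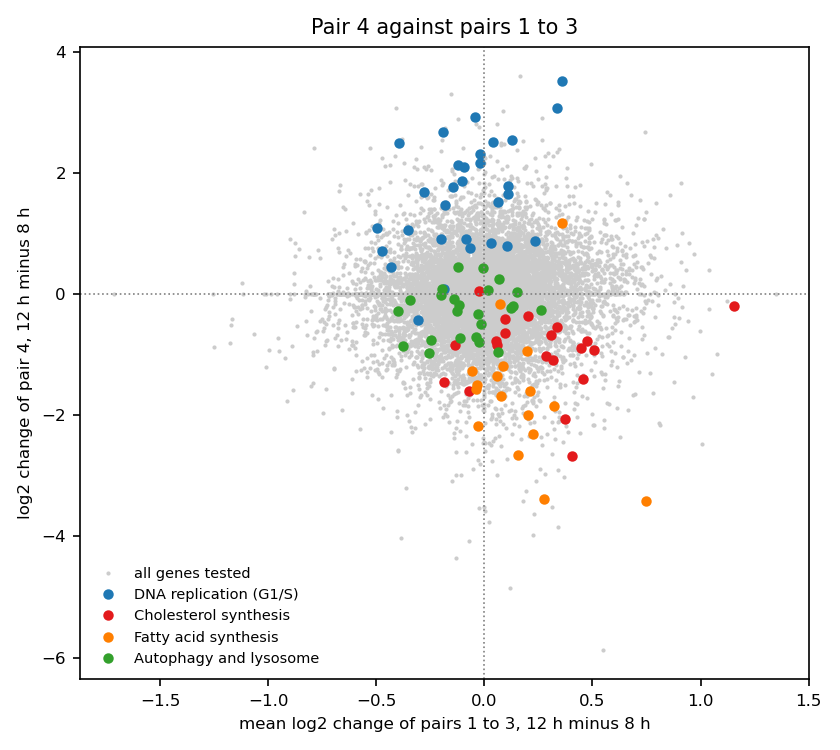
Log2 change in pair 4 against the mean log2 change of pairs 1 to 3 (both 12 h minus 8 h) for all 10916 genes (grey) and 4 lists (coloured). DNA replication lies high and near 0 on the horizontal axis, cholesterol and fatty acid synthesis lie low and mostly right of 0, and the autophagy genes lie around and left of 0.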

How the data were processed

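Biotin-labelled cRNA of the cultures' total RNA was read on Affymetrix arrays, per the labels' protocols. The deposited values are linear intensity readings, 1 per probe set and array. The software and scaling the authors used to make them are not given in the sources used here, and 21.8% of the LA values are at or below 0. The authors' table of ratios and p-values pools both times and was not used.

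The table has 45101 probe sets, from which 64 array controls were removed. The 34945 that name 1 gene symbol were used, and the 932 with several and 9160 with none were not. For 34741 of the 34945 the symbol was taken from RefSeq genes through the Entrez identifier, whether or not it changed. The 8 LA arrays were quantile normalized, raised to a floor of 13.7 (the size of the 2nd percentile, since the 10th is negative at -4.30) and put on the log2 scale. A fold near the floor is understated. The brightest probe set stood for each of 18193 genes, and 10916 genes were tested once the dimmest 40% (7277) had been dropped. The floor held 9.61% of the values tested.

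The 12 h minus 8 h change was fitted in limma 3.58.1 under R 4.3.3 (replicate number as a block, eBayes with a variance trend, two-sided), tested on simulated data. The comparison was defined as paired by replicate number. Within each time's deviations, arrays of the same number correlated at 0.846, 0.767, 0.491 and 0.547 across genes. The highest values with another number were -0.123, 0.238, 0.286 and 0.286. Deviations from a mean cancel within each time, which lowers the values with other numbers, so the contrast is partly built in. The labels call the replicates biological without saying what was separate, so p-values measure the spread between these samples, and 4 pairs limit the precision. Intervals are not adjusted for the number of genes.

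Genes named are the 15 of smallest p in each direction among those of 1 direction in 4 of 4 pairs with a mean change of at least 0.5 and above the floor at 1 time, the 8 of smallest p in each direction in pairs 1 to 3, up to 5 of smallest p in a list, all tested clock genes, and 9 adipocyte genes. Values of other list members come from the same fit and were chosen after their values were seen. The comparison, the members and the 44 lists (853 of 924 entries with a probe set) were chosen with earlier results of these data known. The settings varied were the scaling, the floor, the filter on dim genes, the choice of probe set, the variance trend, the block and array weights, and each pair was left out in turn. Figures were drawn with matplotlib 3.10.9.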

Additional observations from a re-analysis of the deposited data

Results flagged for a closer look

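With 4 values, chance alone sets 1 value apart by this measure in about 1 group of 20. Of the named genes, pair 4 lay far from the other three for Zfp580 (-1.28, against -0.58 to -0.50), Clpx, a mitochondrial protein unfoldase (-0.68, against 0.56 to 0.58), Ces1f, a carboxylesterase with close paralogs (-2.35, against 0.45 to 0.77), and Cyp51 (-0.92, against 0.44 to 0.61). It did so also for N4bp2l1 (-1.44, against 0.52 to 0.76), Pnpla3 (-3.42, against 0.54 to 0.95), Ypel2 (-0.34, against 0.55 to 0.63), Slc35e4 (0.48, against -0.56 to -0.51) and Lep (-1.82, against 0 in the others). All but Zfp580 and Lep were named for a small p in pairs 1 to 3, which picks 3 close values, so the rate of 1 in 20 does not hold for them. Nor does it hold for Lep, which lay at the floor on both arrays of pairs 1 to 3. Any other value in pair 4 would stand apart from those ties. Zfp580 was itself named for a small p and 1 direction over 4 pairs. For Lpl, the lipase that releases fatty acids from lipoproteins, pair 1 was apart (0.44, against -0.04 to 0.03).

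Pair 4 was apart in the medians of cholesterol synthesis (-0.84), branched-chain amino acid breakdown (-0.999), the citric acid cycle (-0.30), cytosolic ribosomal proteins (0.35), DNA replication (1.67) and fatty acid synthesis (-1.60). The 12 h array of replicate 4 was apart in the actin 3' to 5' ratio (5.67, against 1.49 to 1.73) and in the Gapdh ratio (1.42, against 0.845 to 0.879). The 8 h array of replicate 1 was dimmer than the others of its time, with an upper quartile of 26.4, against 63.1 to 68.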

How the results depend on the processing

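No gene was called under any alternative run (lowest adjusted p between 0.59 and 1). The count at an unadjusted p under 0.05 was 475, but 21 without the replicate block (8 higher, 13 lower), 915 with array weights, and 163 to 723 with each pair left out, the lowest without replicate 2 and the highest without replicate 3. Genes of 1 direction in every pair numbered 432 on the deposited scaling and 2076 to 3156 with each pair left out, when only 3 pairs had to share a direction. The median of the inflammation list was 0.005132 with array weights and -0.2996 to 0.149 with each pair left out, the highest without replicate 4. On the deposited scaling the counts of members of 1 direction were 3 for the citric acid cycle, 0 for ribosomal proteins, 2 for autophagy and 1 for inflammation (3 with a floor 2 times as high), and for glycolysis it was 7 with median centring. The shares of all genes differed by scaling too. On the deposited scaling 1.36% were lower in 4 of 4 pairs, and 9.81% were higher and 2.22% lower in pairs 1 to 3. With median centring 7.58% were lower in 4 of 4 pairs. These scaling checks of list counts were chosen after seeing the data. The 30 genes named over 4 pairs were chosen for 1 sign in every pair, so leaving out a pair could not turn their sign. Without replicate 4, 27 of 44 list medians and 9 of 21 other named genes changed sign. Why these values moved was not tested. Low signal limits the dim genes: 9.61% of tested values lay at the floor.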
